A study of Mus musculus with 3 samples.

Results

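The regions described here are stretches of open chromatin in mouse hepatocytes that lie at the ends of long noncoding RNA (lncRNA) and microRNA (miRNA) genes and away from the ends of protein-coding genes. They were measured by ATAC-seq, in which Tn5 transposase inserts sequencing adapters into accessible DNA. The overlapping peaks of 3 libraries were merged. A merged region was kept if it lay on chromosomes 1 to 19, held a peak of all 3 libraries, touched the window of 1 kb on either side of either end of an lncRNA or miRNA gene in RefSeq, and lay more than 1 kb from any end of a protein-coding gene. The rule used the positions of called peaks and no measured level beyond the peak call itself. It gave 4114 regions, which is 4.91% of the 83845 regions on these chromosomes that held a peak of all 3 libraries, out of 139455 merged regions in all.

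All 3 libraries carry the label EV. By that label they are hepatocytes of wild-type (WT) mice that received AAV8-TBG-Cre, the empty control virus, in which the TBG promoter, active in hepatocytes, drives Cre recombinase, and were harvested 4 days after injection. Liberase was used to free the cells and Percoll to enrich hepatocytes, and nuclei came from sorted cells, with no sort marker, age or sex stated in the labels. The Sox4 virus arm was not analysed here, so no comparison between treatments is made. Nothing in the labels ties each library to its own animal, so p-values measure only the spread between these libraries, which may be technical. The libraries held between 96066404 and 117450440 tags and between 108997 and 119230 peaks. All 6 hepatocyte marker genes had a region shared by the 3 libraries at an end, against 2 of 17 markers of other liver and blood cell types (Cd68 of macrophages and Lrat of stellate cells). The library labelled EV replicate 2 stood apart. Its pileup at the Sox4 gene reached 2544 tags, against 128 and 134 tags in replicates 1 and 3. Sox4 is the gene carried by the virus of the other arm, so this value goes against the EV label of that library. It is called replicate 2 below by its label alone, and the comparisons between classes are also given without it.

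Many lncRNAs are transcribed by RNA polymerase II from promoters of their own and are spliced and capped like messenger RNAs, but they act as RNA, for example as scaffolds of nuclear bodies, as hosts of small nucleolar RNAs (snoRNAs), or in silencing imprinted neighbours. A miRNA is cut from a hairpin in a longer primary transcript, which may start many kilobases away or be the intron of another gene, and its mature strand finds target messages mainly through the seed, a short stretch near its 5′ end. In hepatocytes a few miRNAs, miR-122 above all, make up most of the miRNA pool and take part in lipid metabolism and in holding the differentiated state.

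The mature sequences of miRNA genes with such a region show which seed families are among them. They are RefSeq sequences of build GRCm38.p6, written 5′ to 3′ with the seed, bases 2 to 8, in capitals. The first set is the let-7 family, known for repressing Lin28 and Hmga genes, whose members share the seed GAGGUAG.
let-7b-5p: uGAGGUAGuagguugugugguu
let-7c-5p: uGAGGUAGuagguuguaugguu
let-7i-5p: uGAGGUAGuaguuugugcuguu
The second set is a pair with the seed GCAGCAU, encoded in introns of pantothenate kinase genes and known for lowering insulin sensitivity.
miR-103-3p: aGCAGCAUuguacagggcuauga
miR-107-3p: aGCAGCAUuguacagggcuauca
The third set holds miRNAs with different seeds that are abundant in hepatocytes or studied in liver metabolism.
miR-192-5p: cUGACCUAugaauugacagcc
miR-194-5p: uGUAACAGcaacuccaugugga
miR-148a-3p: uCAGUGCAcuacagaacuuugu
miR-101b-3p: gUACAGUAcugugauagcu
miR-30a-5p: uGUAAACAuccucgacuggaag
miR-22-3p: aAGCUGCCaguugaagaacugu
miR-802-5p: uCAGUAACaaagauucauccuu
The last set holds epithelial and neuronal miRNAs. It shows the shared seed AAUACUG of miR-200b and miR-429, and the shared seed AACAGUC of miR-132 and miR-212.
miR-200b-3p: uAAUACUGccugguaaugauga
miR-429-3p: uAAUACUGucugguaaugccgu
miR-132-3p: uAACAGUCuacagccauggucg
miR-212-3p: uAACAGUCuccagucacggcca
miR-9-5p: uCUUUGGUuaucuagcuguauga

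Of the 4114 regions, 3942 lay at ends of lncRNA genes only, 158 at ends of miRNA genes only and 14 at both. They touched 3388 of 12408 lncRNA genes (27.3%) and 190 of 1136 miRNA genes (16.7%). With shared regions near protein-coding ends counted too, the shares were 38.2% of lncRNA genes (4746 of 12408) and 26.9% of miRNA genes (306 of 1136). By comparison with these, 13640 of 20661 protein-coding genes (66%) had a shared region within 1 kb of an end. A further 1870 of the 5984 shared regions near a noncoding gene end also lay within 1 kb of a protein-coding end and were left out by the rule. Most of the 3578 genes had a single region: 2944 had 1, 550 had 2, 77 had 3 and 7 had 4. By symbol, 2691 of these genes carry provisional Gm names and 501 carry Rik names, while 322 have names of neither kind and no LOC symbol. The share of such names among all lncRNA and miRNA genes was not counted, so these counts only describe the genes found.

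The regions were from 209 to 3436 bp long, with a median of 835 bp, and covered 3742 kb in all. They lay at a median of 19503 bp from the nearest protein-coding end, close to the 19965 bp of the other shared regions. Fewer of them were inside the body of a protein-coding gene: 1435 regions (34.9%), against 58.5% of the other shared regions. Along the genome they made up between 4.24% (chromosome 1) and 5.70% (chromosome 12) of each chromosome's shared regions.

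Summits gathered at the start of lncRNA genes and not at their end. Strand came from the RefSeq promoter table, which let 1774 regions be placed at a 5′ end only, 1003 at a 3′ end only and 186 at both, with 1151 not placed. Position was then counted over lncRNA genes longer than 2000 bp whose ends lay over 2000 bp from any protein-coding end. There, 1588 of 6943 5′ ends (22.9%) and 921 of 7692 3′ ends (12%) had such a region within 1 kb. Of the 6567 genes with both ends surveyed, 1167 had a region at the 5′ end only, 479 at the 3′ end only, 289 at both and 4632 at neither.

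Summits are the points of highest pileup within a peak. Within 250 bp of a 5′ end there were 9.69, 9.87 and 9.77 summits per 100 ends in replicates 1, 2 and 3, against 2.23, 2.12 and 2.22 summits per 100 ends over an equal length of flank, 2500 to 3000 bp away. The ratio was 4.46 ± 0.16 (SD, n = 3 libraries). Within 250 bp of a 3′ end there were 1.96, 1.94 and 1.95 summits per 100 ends, against 2.28, 2.30 and 2.24 in the flank, a ratio of 0.859 ± 0.016 (SD, n = 3). Summit density thus peaked at the 5′ end in each library, while at the 3′ end it was below its flank in each library. These are summits of regions shared by the libraries, so the SD does not measure the spread over gene ends.

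**Figure D1:**
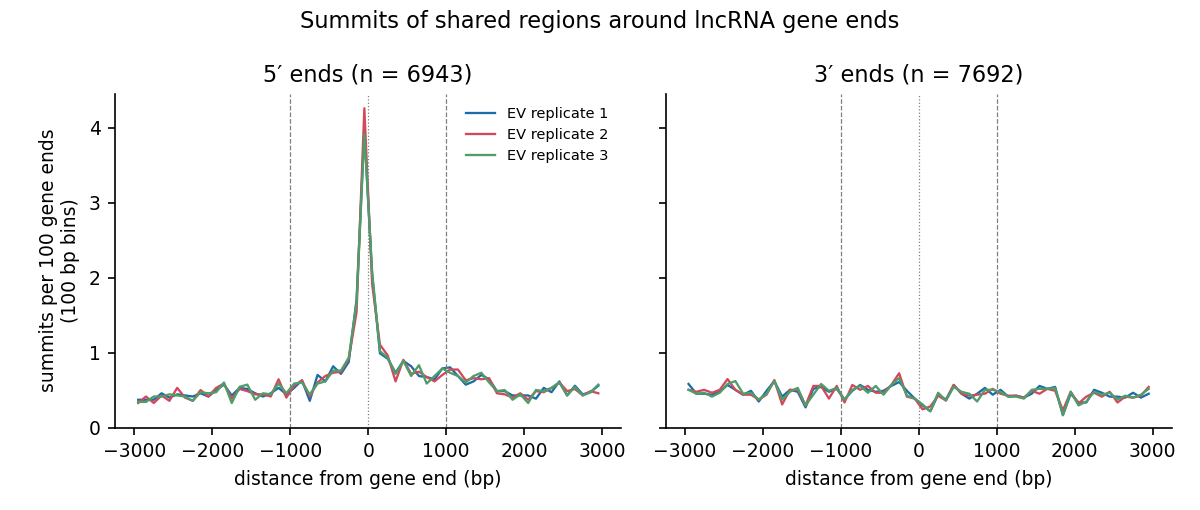
Summits of shared regions per 100 lncRNA gene ends in bins of 100 bp (y axis) against the distance from the gene end in bp along the gene's own direction (x axis), for 6943 5′ ends (left) and 7692 3′ ends (right). Each line is a library, the dotted line marks the gene end and dashed lines mark 1000 bp on either side. All 3 lines peak at the 5′ end and none does at the 3′ end.

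The regions at 5′ ends also had more tags than those at 3′ ends. Pileup, the number of extended tags stacked at a summit, is not scaled for depth and is compared here within each library. Its median was 219.5, 246 and 262 tags at 5′ ends in replicates 1, 2 and 3, against 171, 182 and 199 tags at 3′ ends. The difference was 58.5 ± 8.67 tags (SD, n = 3), higher at 5′ ends in 3 of 3 libraries and 55.8 tags without replicate 2. By an exact two-sided sign-flip permutation test on the paired library values, p = 0.25, the smallest p that 3 libraries allow. The share of regions in the top 10% of their library by pileup was 17.96 ± 1.15% at 5′ ends and 8.57 ± 0.961% at 3′ ends (SD, n = 3).

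A region could also cover the annotated end itself, and 1778 of the 4114 (43.2%) did. Their median pileup was 246, 289.5 and 294.5 tags in replicates 1, 2 and 3. The 636 regions at 1 to 250 bp from an end had medians of 172, 188 and 199 tags, and the 1156 at 250 to 750 bp had 171, 186 and 197.5 tags. At the edge of the rule, the 544 regions that were 750 to 1000 bp from the gene end had medians of 170.5, 182.5 and 206 tags, and the 482 regions just outside it, at 1000 to 1250 bp, had medians of 172, 187 and 201.5 tags. The medians just inside and just outside the 1 kb limit were nearly the same, and of these distance classes the regions on the end itself were the tallest in each library. A longer region covers an end more often, and what part length plays in this was not tested.

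As a class, the regions were taller than open chromatin away from genes' ends and smaller than that at protein-coding ends. Their median pileup was 197, 220.5 and 235 tags in replicates 1, 2 and 3, against 466, 585 and 567 tags for the 15193 shared regions at protein-coding ends and 147, 150 and 175 tags for the 64538 other shared regions. Ranked within each library's peaks, the median stood at a pileup percentile of 63.0, 68.6 and 63.2. Protein-coding ends stood at 86.0, 89.4 and 85.9, and the other regions at 53.3, 56.3 and 53.6. The difference in percentile was −22.2 ± 1.17 from protein-coding ends and 10.5 ± 1.51 from the other regions (SD, n = 3), each with the same sign in 3 of 3 libraries and an exact sign-flip permutation p = 0.25. Without replicate 2 these differences were −22.9 and 9.65.

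**Figure D2:**
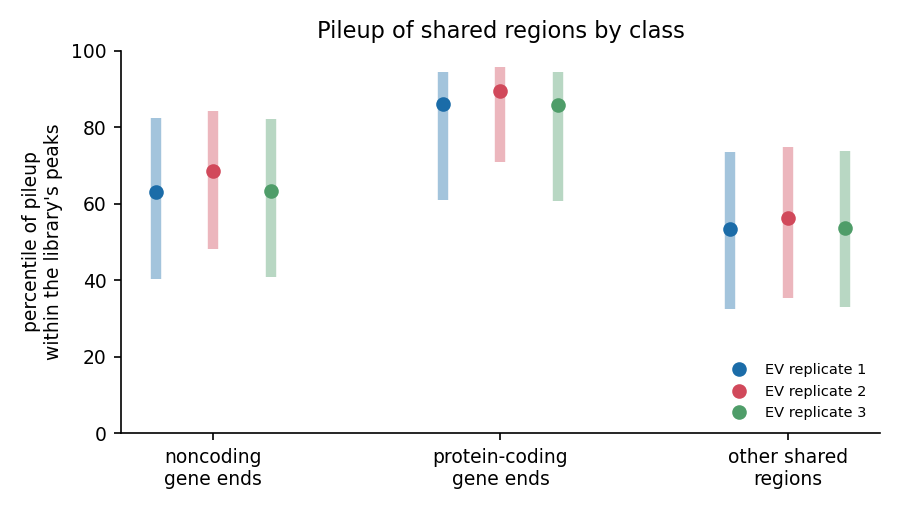
Percentile of pileup within each library's peaks (y axis, 0 to 100) for shared regions at noncoding gene ends, at protein-coding gene ends and elsewhere. Points are medians over regions, thick bars run between the 25th and 75th percentile of the regions, and colours are the libraries. In each library the median at noncoding gene ends lies between the other 2 classes.

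Length followed the same order. The median peak was 670, 717 and 673 bp long at noncoding gene ends in replicates 1, 2 and 3, against 1086, 1136 and 1076 bp at protein-coding ends and 548, 542 and 542 bp elsewhere. The difference from the other regions was 143 ± 28.4 bp (SD, n = 3, longer in 3 of 3 libraries, exact sign-flip permutation p = 0.25). A longer region touches a window more often, so the regions were also placed by their midpoint, an alternative chosen after seeing the data: 3385 regions then passed, and the difference was 128 bp. Fold enrichment, the pileup over the background that MACS estimated around it, differed less between classes. Its median was 8.13, 7.96 and 8.22 at noncoding gene ends, against 9.64, 10.4 and 9.84 at protein-coding ends and 7.62, 6.96 and 7.60 elsewhere. The differences of −1.87 ± 0.520 from protein-coding ends and 0.71 ± 0.26 from the other regions (SD, n = 3, both exact sign-flip permutation p = 0.25) depended on the thresholds. The first was 0.125 when regions had to lie 5000 bp from protein-coding ends, a setting that also moves more regions into the protein-coding class, and the second was −0.967 with the 50000 strongest peaks of each library. With those peaks the first was −0.341, lower in 2 of 3 libraries (exact sign-flip permutation p = 0.5). The second also ranged from 0.271 with windows of 2500 bp to 1.14 with windows of 500 bp.

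Among the regions themselves, those at miRNA genes had lower folds than those at lncRNA genes. The median fold was 6.37, 7.01 and 6.89 over the 158 regions at miRNA genes only in replicates 1, 2 and 3, against 8.16, 7.99 and 8.26 over the 3942 at lncRNA genes only. The difference was −1.38 ± 0.406 (SD, n = 3, lower in 3 of 3 libraries, exact sign-flip permutation p = 0.25). Pileup did not separate them: 194.5, 186.5 and 240.5 tags at miRNA genes, against 197, 221 and 234 tags at lncRNA genes, a difference of −10.2 ± 21.5 tags (SD, n = 3, exact sign-flip permutation p = 0.75). Regions inside protein-coding gene bodies had a median fold of 7.20, 7.15 and 7.17, against 8.65, 8.34 and 8.80 for those outside, with a difference of −1.43 ± 0.221 (SD, n = 3, exact sign-flip permutation p = 0.25). Their pileup went the other way, with medians of 206, 234 and 253 tags inside, against 193, 214 and 226 tags outside. That difference was 20 ± 7 tags (SD, n = 3, higher in 3 of 3 libraries, exact sign-flip permutation p = 0.25). Of the 190 miRNA genes with a region, 133 lay in a protein-coding gene body, so the contrasts by gene kind and by gene body overlap. They were not separated.

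The longest region of all was at a hepatocyte miRNA gene. Mir122, the source of the main hepatocyte miRNA, lies outside protein-coding and lncRNA gene bodies, and its hairpin sits inside a region of 3436 bp at chr18:65248616-65252051. Its pileup was 756, 1225 and 583 tags in replicates 1, 2 and 3, highest in replicate 2. Its folds were 3.95, 3.18 and 4.43, below the median fold in each library.

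The gene lists used from here on were drawn up with earlier results of these data known, so their shares are descriptions and not independent evidence. Among 29 hepatocyte miRNA genes found in RefSeq, 11 (37.9%) had such a region, against 16.7% of all miRNA genes. They were Mir122, Mir192, Mir194-2, Mir148a, Mir802, Mir101b, Mir30a, Mir103-1, Mir107, Mir22 and Mir455, and neighbours in a cluster can share a region. Another 4 had a shared region only within 1 kb of a protein-coding end (Mir378a, Mir29b-2, Mir29c and Mir21a), 2 had a peak in some libraries only, and 12 had none. Over all miRNA genes, 306 of 1136 (26.9%) had a shared region when those near protein-coding ends are counted too. The 12 regions of the list had median pileup percentiles of 92.5, 84.9 and 89.6 in replicates 1, 2 and 3, against 63.0, 68.6 and 63.2 over all 4114 regions.

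Mir107, in an intron of Pank1, had the highest mean pileup of these, at chr19:34819321-34820452. Its pileup was 907, 745 and 1175 tags in replicates 1, 2 and 3 with folds of 13.8, 18.1 and 13.4. Mir103-1, which shares its seed and lies in Pank3, had 631, 558 and 787 tags at chr11:35782862-35784421, with folds of 17.7, 18.2 and 17.3. Both were above the median region of every library.

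Mir148a, known for repressing DNA methyltransferase and lipid genes, had a region of 1303 bp at chr6:51270110-51271412, 200 bp from the hairpin, with 669, 874 and 833 tags in replicates 1, 2 and 3. A second region on its other side had 440, 363 and 459 tags. Mir22, a miRNA of lipid and glucose metabolism, shared a region with its host gene Mir22hg at chr11:75462027-75463314, with 611, 894 and 801 tags. Mir455, in a Col27a1 intron, had 667, 842 and 765 tags with its hairpin inside the region. All 3 genes were high in each library.

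The remaining hepatocyte genes were lower or less even. Mir192 and Mir194-2, a pair of clustered genes, shared a region of only 288 bp at chr19:6264304-6264591, with 262, 168 and 253 tags in replicates 1, 2 and 3. Mir802, which is raised in obese liver, had its hairpin inside a region with 297, 357 and 372 tags at chr16:93369486-93370335. Mir101b, from a family that represses the Polycomb enzyme Ezh2, had 657, 272 and 793 tags, lowest in replicate 2. Mir30a went the other way, with 48, 252 and 76 tags, and its region was below the median peak in replicates 1 and 3 and above it in replicate 2.

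The other miRNA lists are read beside the same 16.7% of all miRNA genes. Of 16 genes of the let-7, mir-99, mir-100 and mir-125 families, 3 (18.8%) had such a region. Mirlet7b and Mirlet7c-2 shared one with 828, 563 and 957 tags in replicates 1, 2 and 3, and Mirlet7i had one with 544, 704 and 664 tags. Of 12 biliary and epithelial miRNA genes, 5 had one (41.7%), but 3 of them are 1 cluster. Mir200a, Mir200b and Mir429, which hold epithelial identity by repressing Zeb genes, shared a low region with 85, 117 and 67 tags. Mir203, a miRNA of epidermal differentiation, had 787, 561 and 971 tags over 1885 bp. Mir31 had 355, 246 and 420 tags.

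The lists of other cell types are read the same way. Of 11 blood cell miRNA genes, 1 (9.09%) had a region: Mir181a-2, with 55, 116 and 84 tags in replicates 1, 2 and 3. Of 10 endothelial, stellate and smooth muscle miRNA genes, 2 did (20%): Mir10b, with 115, 130 and 109 tags, and Mir145a, with 213, 208 and 274 tags. Of 28 growth-associated genes, 27 miRNA genes and the lncRNA host of the Mir17 cluster, none had a region away from protein-coding ends. Mir34b and Mir34c had one near such an end. This count depends on the genes listed, and some of them are clustered. Mir290a and Mir291a had no peak, but their unlisted neighbours Mir291b, Mir292, Mir293, Mir294 and Mir295 on chromosome 7 had a region.

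Of 23 muscle and neuronal miRNA genes, 7 had a region (30.4%), in 7 regions. Mir132 and Mir212, a pair induced by the factor CREB in neurons, had 337, 653 and 402 tags in replicates 1, 2 and 3. Mir137 had 269, 290 and 292 tags and Mir129-1 had 159, 293 and 212 tags. Mir9-3, a brain miRNA gene, was among the lowest regions, with 26, 82 and 30 tags. All 7 regions of this list ranked highest in replicate 2, against 57.4% of all 4114 regions, and their median pileup percentile was 42.3, 72.0 and 44.6. Replicate 2 also ranked highest at 6 of 7 regions of the imprinted list, 13 of 17 of the nuclear and structural list and 8 of 11 of the liver lncRNA list. In other lists it did so less often, at 6 of 12 hepatocyte, 1 of 3 biliary and 1 of 4 developmental regions. What sets replicate 2 apart was not tested.

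**Figure D3:**
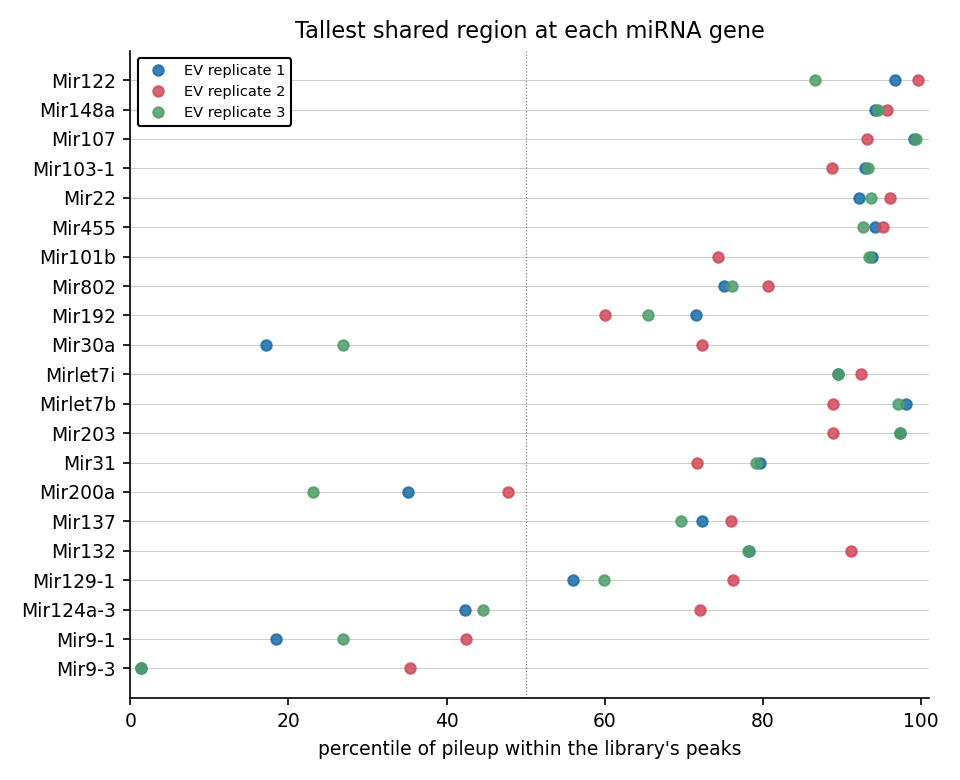
Percentile of pileup within the library's peaks (x axis, 0 to 100) of the tallest shared region at each of 21 miRNA genes from the lists (rows), with a point for each EV library and a dotted line at 50. Hepatocyte genes are in the upper rows, let-7 and epithelial genes in the middle and neuronal genes at the foot. Most upper rows lie to the right of 50 in each library, while at Mir30a, Mir124a-3, Mir9-1 and Mir9-3 the replicate 2 point lies to the right of the others.

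Position inside other genes differed among the 190 miRNA genes: 133 lay in a protein-coding gene body, 21 in an lncRNA body and 36 in neither. For 79 of them (41.6%) the hairpin itself overlapped the region. Their entries in the sequence table, 168 genes, gave 275 mature miRNAs with 255 distinct seeds, of which 21 occurred at several genes. The seed GAGGUAG was the most frequent, at 4 genes. None of these counts of position, hairpin overlap or seed was made over all miRNA genes, so they describe these 190 genes only. Ranked by the fold percentile, the leading miRNA regions were those of Mir7028, Mir210, Mir3105, Mir28b, Mir6372, Mir103-1, Mir7b, Mir6360, Mir1949 and Mir5623. Mir210, known for its induction by hypoxia, had 863, 1124 and 1147 tags in replicates 1, 2 and 3, with folds of 16.4, 17.8 and 17.9.

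Of 14 named lncRNA genes with nuclear or structural roles, 9 (64.3%) had a region, against 27.3% of all lncRNA genes. They were Neat1, Malat1, Pvt1, Dleu2, Dancr, Oip5os1, Norad, Kcnq1ot1 and Lncpint, and Tug1, Gas5 and Epb41l4aos had one only at a protein-coding end. Transcription of these genes was not measured here. No test of the difference in share was run.

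Malat1, a nuclear speckle RNA, and Neat1, the scaffold of paraspeckles, lie near each other on chromosome 19, and each had 3 regions. The region on the Malat1 5′ end had 730, 844 and 889 tags in replicates 1, 2 and 3, and one of 2807 bp on its 3′ end had 634, 841 and 757 tags. At Neat1 one end had 587, 911 and 832 tags, and the region on the other end had 373, 441 and 300 tags. All of these pileups were above the median of each library, yet the Neat1 folds were from 1.24 to 1.85, including the lowest of all 4114 regions. What lowers the folds there was not tested.

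Norad, which binds Pumilio proteins and guards chromosome stability, stood at the opposite end. Its taller region at chr2:156392371-156393168 had 494, 446 and 578 tags in replicates 1, 2 and 3 with folds of 20.6, 18.8 and 21.1. A second Norad region had 135, 138 and 152 tags. Oip5os1, known as Cyrano, which triggers decay of miR-7, had 573, 835 and 602 tags at its 5′ end. Dleu2, the host of Mir15a and Mir16-1, had 514, 948 and 707 tags, although no region was found within 1 kb of those 2 hairpins. Pvt1, the neighbour of Myc, had 405, 509 and 448 tags. Lncpint, which is induced by p53, had 499, 416 and 568 tags near its 3′ end and 411, 474 and 457 tags near its 5′ end. A further region, on the Lncpint 5′ end itself, had 328, 354 and 436 tags. Folds were low at this end, with 2.32, 2.44 and 2.22 near it and 1.90, 1.85 and 2.16 on it. Of the pileups given in this paragraph, only that of the second Norad region in replicate 3 was below its library's median.

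Nearly all snoRNA host genes had open chromatin at an end. Of 20 genes, 11 (55%) had a region, against 27.3% of all lncRNA genes, and 8 more had one only within 1 kb of a protein-coding end. With both kinds counted, 19 of 20 had one, against 4746 of 12408 lncRNA genes (38.2%), and Snhg14, a brain-expressed imprinted gene, was the one left without. The 12 regions of the list had median pileup percentiles of 92.6, 93.5 and 94.0 in replicates 1, 2 and 3, and 7 of them were in the top 10% of each library, against 399 of all 4114 regions. Snhg8 had 1103, 1202 and 1317 tags over a region at chr3:123507993-123509420, which covered its 5′ end and lay within 1 kb of its 3′ end. Snhg15 had 914, 1187 and 1083 tags over 2003 bp, and Snhg16 had 767, 1008 and 1049 tags with folds of 17.9, 17.3 and 18.4. Snhg4 had 690, 870 and 824 tags with a fold of 19.9 in each library, Snhg12 had 712, 736 and 931 tags and Snhg20 had 703, 692 and 802 tags. Snhg7 had 514, 642 and 581 tags, Snhg17 had 535, 727 and 706 tags, and Dancr, an RNA that keeps progenitor cells undifferentiated, had 541, 785 and 656 tags. Snhg11, known for neuronal expression, was lower, with 274, 507 and 211 tags at its 5′ end and 108, 76 and 99 tags at its 3′ end.

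Of 11 liver and metabolic lncRNA genes, 7 (63.6%) had a region, against 27.3% of all lncRNA genes. Trp53cor1, known as lincRNA-p21 and induced by p53, had 808, 1100 and 958 tags in replicates 1, 2 and 3 at one end and folds of 14.1, 15.0 and 14.6. Gm15441, an antisense RNA of Txnip, had 591, 676 and 787 tags at one end. 0610005C13Rik had 640, 457 and 752 tags over 2439 bp. Platr4 had 239, 334 and 363 tags, Gm16551 had 259, 284 and 300 tags and Gm10768 had 139, 251 and 111 tags. Lncbate1, an lncRNA of brown fat, was low, with 103, 37 and 85 tags. Hnf4aos, the antisense RNA of the hepatocyte nuclear receptor gene Hnf4a, was named after its values were seen: it had a region of 2906 bp, the seventh longest, with 817, 949 and 1018 tags.

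The imprinted list holds both kinds of gene. Of its 8 lncRNA genes, 4 (50%) had a region, against 27.3% of all lncRNA genes: Rian, Airn, Kcnq1ot1 and Peg13. Of its 11 miRNA genes, 1 (9.09%) did, Mir136, against 16.7% of all miRNA genes. H19 had a peak in some libraries only and Meg3 had none. Kcnq1ot1, an antisense RNA that silences its neighbours on the paternal copy, had 288, 469 and 332 tags in replicates 1, 2 and 3 at its 5′ end. Peg13 had 425, 503 and 567 tags. Airn, which silences Igf2r, had 126, 530 and 146 tags at its 5′ end and 150, 884 and 192 tags in a region 577 bp from it. Another, at its 3′ end, had 31, 85 and 33 tags, and all 3 Airn regions were taller in replicate 2 than in either other library. Of 20 developmental lncRNA genes, 4 (20%) had a region, against 27.3% of all lncRNA genes, among them Carmn with 491, 521 and 556 tags and folds of 26.1, 26.4 and 26.3, and Rmst, a neuronal RNA, with 519, 153 and 472 tags. Sox2ot, which overlaps the pluripotency gene Sox2, had 75, 92 and 140 tags, and Bvht, an RNA of heart development, shared the region of Mir145a.

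**Figure D4:**
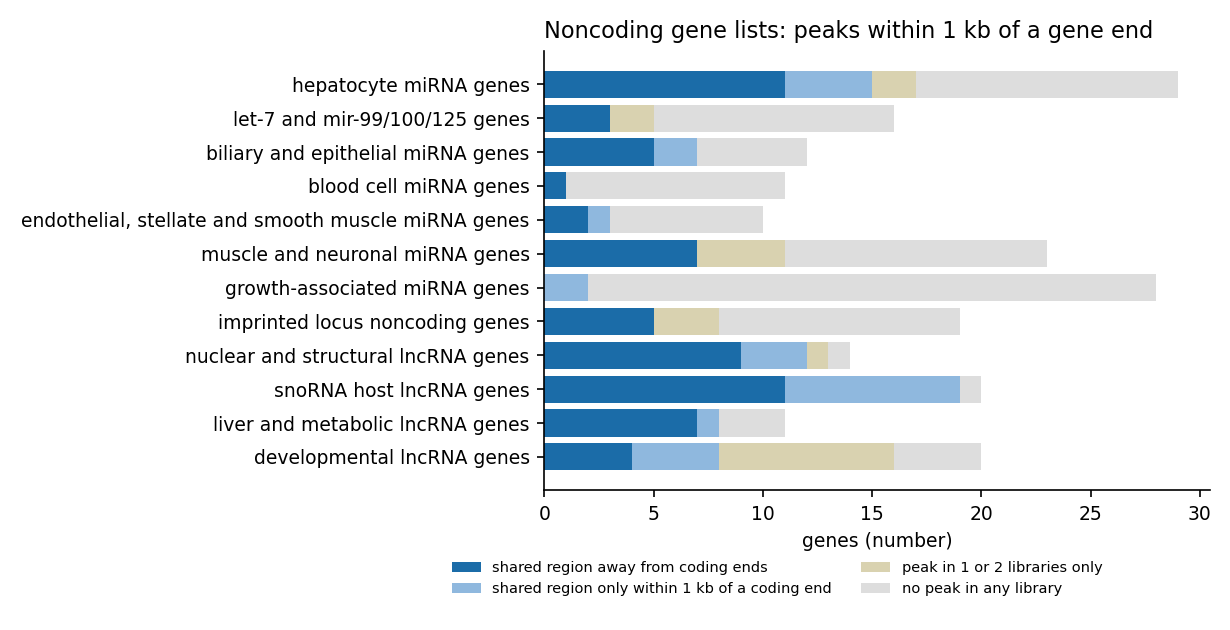
Number of genes (x axis) in each of 12 noncoding gene lists (rows), split by what lies within 1 kb of a gene end. Dark blue is a region shared by the 3 libraries and away from protein-coding ends, light blue is one only near a protein-coding end, tan is a peak in 1 or 2 libraries, and grey is no peak. The snoRNA host list has 19 of 20 genes in blue, and the growth-associated miRNA list has none in dark blue.

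Some of the most extreme regions lay at genes with provisional names. By pileup, AY036118 was far above the rest at chr17:39847523-39848795, with 6600, 11376 and 8693 tags in replicates 1, 2 and 3 and folds of only 2.30, 2.06 and 2.29. No control library entered the peak calling, so whether repeated sequence adds to that pileup was not tested. The next by mean pileup percentile were at LOC115490388, Gm40264, Gm52285 and Gm52727, with 1024 to 1465 tags over the 3 libraries. By fold, 4930482G09Rik led with 30.2, 32.2 and 31.6, followed by 4930553P18Rik with 28.3, 26.6 and 26.7. The other lncRNA regions among the 10 highest by fold were at Gm46843, Carmn, Gm42338, Gm52779, 1700015I17Rik, Gm35890, Gm15328 and Gm32750. After Mir122 the longest regions were at Gm7854 with 3208 bp, Gm34235 with 3126 bp, A930004D18Rik and Gm17762 with 3049 bp, and Gm32139 with 2968 bp. With Neat1, the lowest folds were at Mir707, Gm31365 and Gm30505, whose pileups of 236 to 528 tags were above the median of each library. A group of 7 genes tied for the most regions, with 4 each: Gm34657, Gm26697, Gm30543, BC024386, Gm39159, 1700016A09Rik and 2900052L18Rik.

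The promoter table let the sequence at the 5′ ends be read. Its windows run from 250 bases before to 50 bases after each start, 300 bases in all. Of its lncRNA promoters, 1420, from 1252 genes, lay in one of the regions, and 8193 had no peak in any library. The median GC content was 51% in the first group, against 47% in the second and 53% over all 31396 promoters. The CpG observed over expected ratio had medians of 0.336, 0.205 and 0.389 in the same order. A ratio above 0.6, which is typical of CpG islands, was held by 24.2% of lncRNA promoters in a region, against 3.72% of those with no peak and 36.4% of all promoters. The regions with such promoters were taller: their median pileup was 467, 617 and 573 tags in replicates 1, 2 and 3, against 237.5, 273 and 279 tags for regions whose promoters had a ratio of 0.6 or below.

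Matches to 10 short motifs were counted on both strands of these windows. The motifs of FOXA and HNF4A, factors known to act in hepatocytes, were commoner in lncRNA promoters that lay in a region than in those with no peak. So were the ETS and NRF1 motifs, while the motif of C/EBP, also a hepatocyte factor, was less common there. The forkhead core TGTTTAC of the FOXA factors was in 6.97% of lncRNA promoters in a region, against 4.92% of lncRNA promoters with no peak and 3.71% of all promoters. The HNF4A element CAAAGTCCA was in 1.06%, against 0.439% and 0.487%. The 1.06% rests on 15 promoters. Among promoters with a CpG ratio of 0.6 or below, the shares were 6.22% against 4.75% for the forkhead core and 1.39% against 0.456% for HNF4A.

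The ETS motif CCGGAAG was in 5.21% of lncRNA promoters in a region, against 2.32% of those with no peak and 9.004% of all promoters, and the NRF1 motif GCGCATGC in 1.41%, against 0.635% and 2.70%. The C/EBP motif TTGCNNCAA was in 2.39%, against 2.83% and 2.07%, and the AP-1 motif TGANTCA in 9.23%, against 10.0% and 7.84%. The TATA box TATAAA, the CCAAT box, and the SOX cores ACAAAG and AACAAT were each less frequent in lncRNA promoters in a region than in those with no peak. The motif ACAAAG can overlap CAAAGTCCA by 5 letters. A match is a description of the sequence, not of a bound site, and promoters of 1 gene can overlap, so no test was made.

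**Figure D5:**
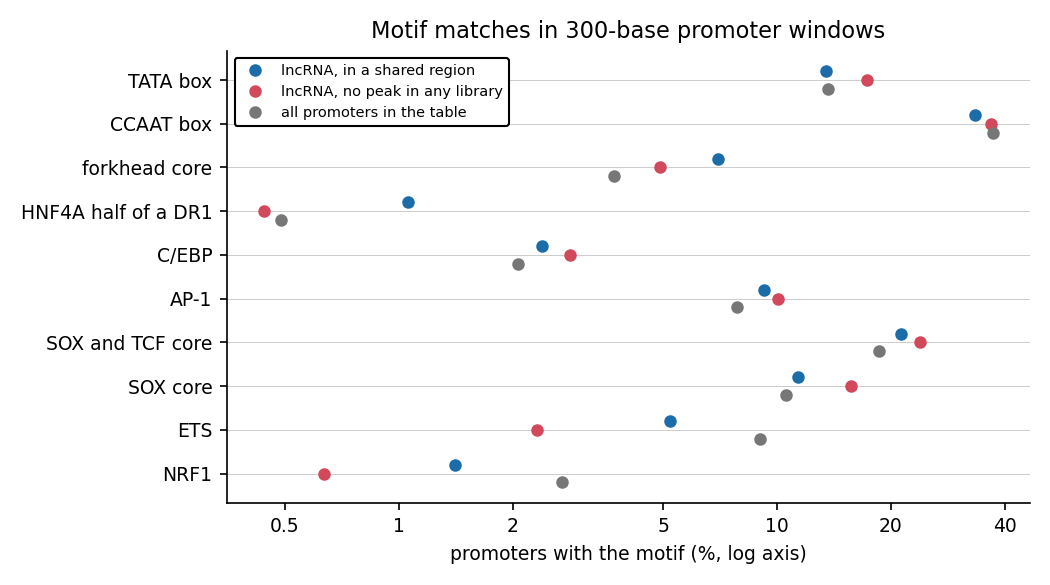
Percent of 300-base promoter windows with a match to each of 10 motifs (x axis, log scale) for lncRNA promoters in a shared region at a noncoding gene end, lncRNA promoters with no peak in any library, and all promoters in the table. The forkhead and HNF4A points of the first group lie to the right of both others.

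A few promoters show these sequence types beside their pileups. They are RefSeq windows of build GRCm38.p6, 5′ to 3′ on the gene's strand, with every match to one of the 10 motifs in capitals. The first pair is of snoRNA host genes with high CpG ratios: Snhg8 (chr3:123508287-123508586, minus strand, ratio 1.04) and Snhg5 (chr9:88522848-88523147, minus strand, ratio 1.26), which both have a CCAAT box and a TATA box. The Snhg5 region had 563, 878 and 820 tags in replicates 1, 2 and 3.
Snhg8 promoter: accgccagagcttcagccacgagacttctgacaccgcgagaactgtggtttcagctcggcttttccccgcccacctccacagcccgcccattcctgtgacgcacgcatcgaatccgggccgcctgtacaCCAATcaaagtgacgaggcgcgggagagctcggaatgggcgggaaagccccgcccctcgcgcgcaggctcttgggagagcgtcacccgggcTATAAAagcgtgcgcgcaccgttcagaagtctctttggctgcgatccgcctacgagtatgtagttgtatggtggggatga
Snhg5 promoter: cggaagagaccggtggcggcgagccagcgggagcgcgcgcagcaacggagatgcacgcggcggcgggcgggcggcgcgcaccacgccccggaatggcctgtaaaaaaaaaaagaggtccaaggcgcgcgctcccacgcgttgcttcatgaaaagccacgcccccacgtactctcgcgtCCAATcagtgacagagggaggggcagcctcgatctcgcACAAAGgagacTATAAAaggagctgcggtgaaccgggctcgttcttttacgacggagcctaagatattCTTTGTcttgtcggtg
The other promoters each lie in the region with the highest mean pileup percentile among those with a forkhead core or an HNF4A element, and were chosen after their values were seen. 1810008I18Rik (chr7:65803783-65804082, plus strand) has 2 copies of the forkhead core, both as the reverse complement, and its region had 806, 1112 and 1074 tags.
1810008I18Rik promoter: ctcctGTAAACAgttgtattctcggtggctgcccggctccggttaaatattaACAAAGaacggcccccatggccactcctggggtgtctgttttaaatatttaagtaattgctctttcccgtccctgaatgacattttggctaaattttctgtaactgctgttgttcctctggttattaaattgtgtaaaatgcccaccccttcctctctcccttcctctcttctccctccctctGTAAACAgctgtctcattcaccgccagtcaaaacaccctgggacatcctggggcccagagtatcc
Gm30117 (chr17:85928552-85928851, minus strand) has the HNF4A element, and its region had 900, 1155 and 1088 tags.
Gm30117 promoter: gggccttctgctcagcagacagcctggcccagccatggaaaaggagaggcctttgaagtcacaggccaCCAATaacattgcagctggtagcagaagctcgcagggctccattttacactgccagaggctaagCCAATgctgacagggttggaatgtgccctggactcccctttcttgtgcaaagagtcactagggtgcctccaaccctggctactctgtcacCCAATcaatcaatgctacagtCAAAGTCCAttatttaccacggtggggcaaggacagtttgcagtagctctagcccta

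Ranks were compared only among regions that, by the rule, had a peak in all 3 libraries, so regions missing from a library do not enter. The range of a region's pileup percentile over the 3 libraries had a median of 9.89 points and was under 10 points for 50.6% of regions. In the top 10% of every library were 399 regions. A further count put 2402 above the median peak in every library and 866 below it in every library. Where a library departed, it was mostly replicate 2. In it 287 regions ranked more than 30 points above the mean of the other libraries and 83 more than 30 points below, against 10 above and 40 below for replicate 1, and 0 and 23 for replicate 3. None of the counts above in this paragraph was made for the other classes of shared regions, so none is shown to be particular to noncoding gene ends. Replicate 2 alone also held 1012 of the 6031 regions found at noncoding gene ends in any library (16.8%), against 130 held by replicate 1 alone and 118 by replicate 3 alone. That share lay between the 9.10% of regions at protein-coding ends and the 18.3% of other regions that replicate 2 held alone, and replicate 2 has the longest peak list.

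The regions that stood out most in replicate 2 were at lncRNA genes with provisional names. Gm46609 had 63, 777 and 64 tags in replicates 1, 2 and 3, Gm39359 had 38, 375 and 45 tags, and 4931419H13Rik had 27, 228 and 35 tags. 4933413J09Rik and Gm20554 followed the same pattern. In the other direction, A930013F10Rik had 581, 42 and 431 tags, C030018K13Rik had 212, 41 and 209 tags, and Gm26761 had 451, 74 and 504 tags. Gm52123 and Mir1948 were likewise low in replicate 2 only. The same library holds the tall Sox4 signal, and what part that plays in these differences was not tested.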

How the data were processed

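ATAC-seq peak lists of 3 EV hepatocyte libraries were used. Reads were processed with Bowtie2, Picard, deepTools and MACS2 on mm10, per the submitters' processing notes, and alignment and duplicate settings are not given in the sources used here. Peaks were called by the authors on each library separately with MACS 2.2.7.1 and no control library, with tags shifted by 100 bp and extended to 200 bp, all duplicates in the input kept, and a q cutoff of 0.05, per the file headers. The deposited signal is the pileup at each summit, unscaled for depth. The deposited −log10 p and −log10 q values, and the deposited ratio (fold enrichment), set it against the higher of the genome-wide and the 10000 bp regional background. These values are the authors' and served to describe and rank peaks inside each list, and a level is a region's highest summit in that library. A peak list gives no counts where no peak was called, so absence of a peak is no measure of zero, and no counting interval is given.

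Lines with the same start and end were taken as 1 peak, and peaks sharing 1 bp or more were merged (pandas 2.3.3, numpy 2.4.6). Gene ends came from the RefSeq table of GRCm38.p6 (mm10 coordinates), and strand came from its promoter table. No genome was used, so exons and introns were not separated. Class medians were compared over libraries by an exact two-sided sign-flip permutation test. Named are the list genes with a region, the 10 lncRNA and 10 miRNA regions with the highest fold percentile, the 5 tallest, the 5 longest, the 5 lowest in fold, the genes with most regions, and the 5 that departed most in replicate 2 in each direction. The 12 lists hold 209 matched genes, of which 63 had a region, and Dancr and Kcnq1ot1 stand in 2 lists each. The members and lists were chosen with earlier results of these data known. The rule was checked on simulated peaks. Of the motifs searched, 1 is not reported here. Alternatives changed the window, the distance from protein-coding ends, the q cutoff, the number of peaks, the overlap, the genes counted and the libraries, and placed regions by midpoint.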

Additional observations from a re-analysis of the deposited data

How the results depend on the processing

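Of 88 recomputed values, 2 reversed, 11 counts or shares moved, and 75 kept their direction or, for counts, stayed within 1.5 times, though some of these changed in size. The count of regions was 6814 with windows of 2500 bp, 2131 with the 50000 strongest peaks of each library and 346 with named genes only. lncRNA genes with a region numbered 1953 with 50000 peaks and 144 with named genes only. miRNA genes numbered 300 with windows of 2500 bp, 124 at 5000 bp from protein-coding ends and 106 with 50000 peaks. The share inside protein-coding bodies was 32.1% at 5000 bp from protein-coding ends, 33.0% with 50000 peaks and 52.6% with named genes only. The difference in median fold from protein-coding ends was 0.125 at 5000 bp from them, and that from other shared regions was −0.967 with 50000 peaks. Without a reversal, the first was −0.341 with 50000 peaks (2 of 3 libraries), and the second was 0.271 with windows of 2500 bp, 1.14 with windows of 500 bp, 0.447 at a −log10 q of 10 or more and 0.352 with named genes only (2 of 3 libraries). The difference in pileup over the list median was 0.225 with 50000 peaks and 0.771 with named genes only. The cause was not tested. Leaving out 1 library at a time gave 4238 to 4472 regions, 3467 to 3565 lncRNA genes, 192 to 205 miRNA genes, a fold difference of −2.18 to −1.85 from protein-coding ends and 0.824 to 0.842 from other regions, a difference in pileup over the list median of 0.412 to 0.463, a length difference of 136.25 to 152 bp and a share inside coding bodies of 35.0% to 35.5%. No paired analysis was possible because there is 1 group, so replicate numbers pair no samples of different groups, and the sign-flip tests pair classes of regions within a library. With 3 libraries no p below 0.25 can be reached. Depth differs between libraries, and a shared region needs a peak in the shallowest one too.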
